A study of Mus musculus with 16 samples.

Results

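Pi16, Pdgfra, Dpt, Col14a1, Cd34, Clec3b, Smoc2, Ly6a, Ly6c1 and Igfbp6 are genes used as markers of the fibroblasts and progenitor cells of the arterial adventitia. The 10 genes were listed by name as known markers, with no rule on their measured values. Earlier results of these data were known when they were chosen. All 10 were found among the 24011 gene symbols of the deposited count table. RNA was sequenced in 16 libraries of aorta or liver, 4 in each of 4 groups: aorta with E2, aorta with vehicle, liver with E2 and liver with vehicle. E2 is 17b-estradiol, the main natural estrogen, given at 10 nM for 4 h to the tissue in DMEM at body temperature, and vehicle is ethanol. Every group came from female wild-type C57BL/6 mice ovariectomized at 6 to 7 weeks of age, whose tissues were taken 1 week after surgery, so the vehicle groups share the loss of the ovaries and the time in culture. The liver samples were cut from the tip of the major lobe.

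Library columns carry a suffix, o1, o2, n1 or n2, that no label explains, and the letters are used here as library types. The labels name an Ovation kit with 50 ng of RNA as input for 8 libraries, which were run on a pair of sequencing instruments, and poly-A selection from 600 ng of RNA of a single aorta or liver fragment for the other 8. No source used here says whether o and n stand for these kits. The series text gives 4 mice to a replicate, which the labels of the poly-A libraries do not. Where replicates are repeat preparations of 1 pool, p-values measure only the spread between these samples.

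The adventitia is the outer coat of an artery, a sheet of collagen-rich connective tissue around the smooth muscle. Its fibroblasts make and maintain that matrix, and a share of them with stem-like properties is recognised by the surface proteins CD34 and Sca-1, the product of Ly6a. Several of the marker genes are also known in other cells: Cd34, Ly6a and Ly6c1 in endothelium, Ly6a and Ly6c1 in blood cells, and Pdgfra in fibroblasts of most organs. The liver has few such fibroblasts outside its portal tracts, and its vitamin A-storing stellate cells are a separate mesenchymal type. In whole tissue, fewer cells of a type and less RNA per cell cannot be told apart.

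Totals of counts on genes were 6471319 to 16905441 in E2 aortas, 6042073 to 19823982 in vehicle aortas, 3896733 to 11796977 in E2 livers and 5210693 to 13078032 in vehicle livers. Tissue identity matched the labels. The summed level of 8 smooth muscle genes was 10432 to 28636 CPM in aortas and 187 to 465 CPM in livers, and that of 8 hepatocyte genes was 65.8 to 609 CPM in aortas and 72152 to 208267 CPM in livers. Liver o libraries gave 25.7% to 34.5% of their counts to Rn45s, the ribosomal RNA precursor gene, which took no more than 6.20% elsewhere. CPM are counts scaled to a common library size after TMM normalization, and per-library values are given in the order o1, o2, n1, n2 throughout.

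**Figure D1:**
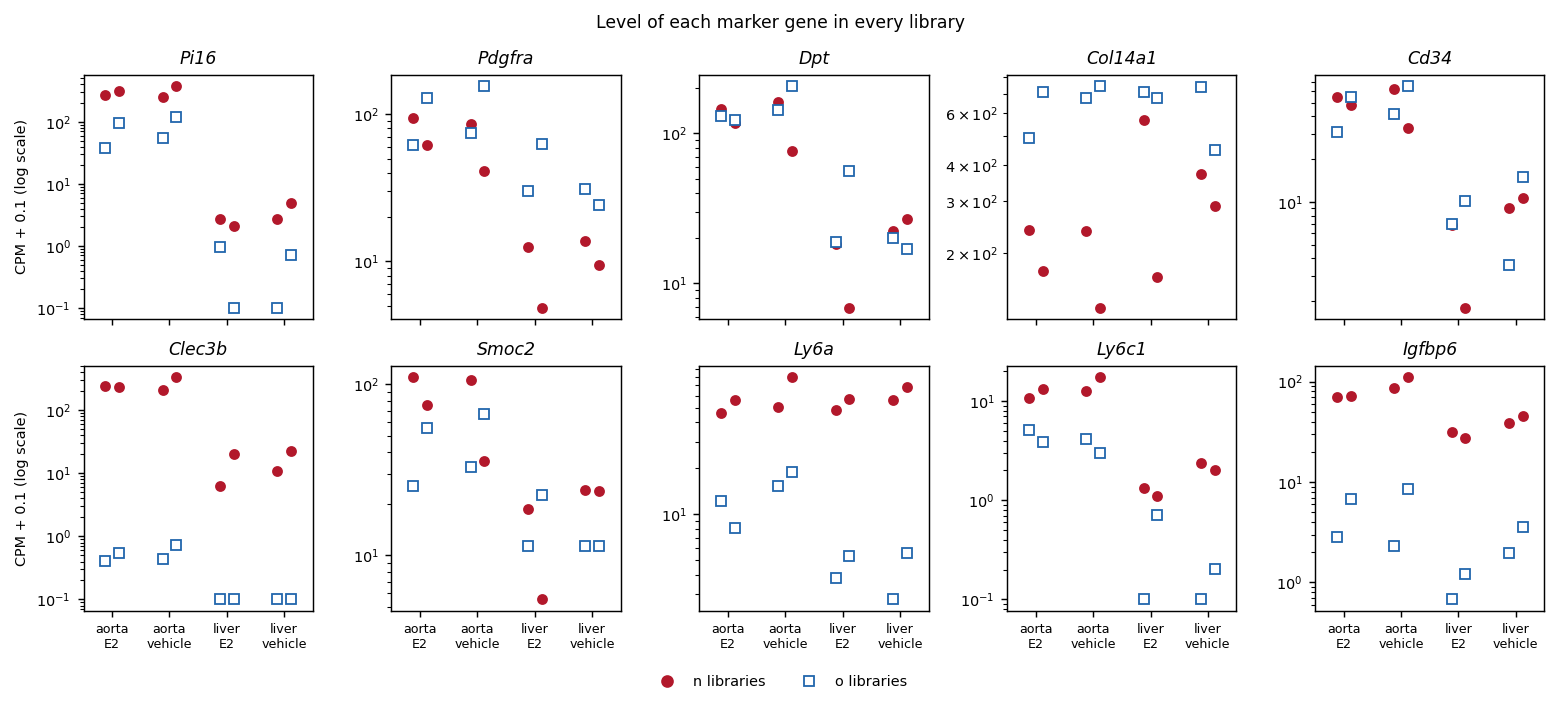
Level of each of the 10 genes in all 16 libraries, as CPM + 0.1 on a log scale, with the 4 groups on the horizontal axis. Filled circles are n libraries and open squares o libraries, one point per library. Pi16, Dpt, Cd34, Smoc2 and Ly6c1 separate aorta from liver in both treatments, and Pi16, Clec3b, Ly6a, Ly6c1 and Igfbp6 separate n from o libraries in both tissues. The separation of n from o livers by Pi16 and Ly6c1 rests on few counts. The share of all genes that separate in these ways was not counted.

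The first comparison set aorta against liver, separately in the E2 and the vehicle libraries, which share no library. Pi16 was the member with the largest difference. Clec3b, Ly6c1, Dpt, Cd34, Pdgfra, Smoc2 and Igfbp6 were also higher in aorta under both treatments, while Ly6a and Col14a1 did not pass the test. In the quasi-likelihood test of edgeR, adjusted over all genes by Benjamini and Hochberg, 8 of 10 members were called higher and 0 lower in E2 libraries, where 26.3% of the 13061 genes tested were called higher and 22% lower (48.3% in all). In vehicle libraries it was also 8 higher and 0 lower of 10, against 24.1% higher and 23.4% lower (47.5% in all) of 12607 genes. A call needed an adjusted p under 0.05 and a log2 fold change beyond 1 in size. Because the members were chosen with earlier results of these data known, these counts describe the list and do not test it. The members' median log2 fold change was 2.45 in E2 libraries and 2.35 in vehicle libraries, against 0.16 and 0.05 over all genes tested.

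Among the surface receptors and progenitor antigens, Pdgfra encodes the alpha receptor for platelet-derived growth factor and Cd34 a sialomucin of progenitor and endothelial cells. Pdgfra had 61.4, 128, 93.9 and 61.8 CPM in E2 aortas, against 29.9, 62.3, 12.3 and 4.73 CPM in E2 livers. It had 74.2, 156, 85.6 and 41.2 CPM in vehicle aortas, against 30.9, 24.0, 13.7 and 9.34 CPM in vehicle livers. The lowest E2 aorta lay just under the highest E2 liver, an o library, and the vehicle groups did not overlap. Its log2 fold change was 2.14 ± 0.54 (SE, adjusted p = 0.00802) with E2 and 2.21 ± 0.37 (adjusted p = 3.61e-04) with vehicle by edgeR. Within library types the E2 value was 2.98 in n libraries and 1.03 in o libraries, and the call in E2 libraries was lost without liver E2 library n1 (adjusted p = 0.0553). Cd34 had 31.1, 54.2, 54.5 and 48.3 CPM in E2 aortas, against 6.91, 10.0, 6.72 and 1.69 CPM in E2 livers. Vehicle aortas had 41.7, 65.8, 62.2 and 33.0 CPM of it, against 3.47, 14.8, 9.00 and 10.6 CPM in vehicle livers. Every aorta was above every liver, with log2 fold changes of 2.98 ± 0.48 (adjusted p = 6.46e-04) with E2 and 2.49 ± 0.37 (adjusted p = 1.42e-04) with vehicle.

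Ly6a encodes Sca-1, a GPI-anchored antigen of progenitor cells, and Ly6c1 a related antigen known on endothelium and leukocytes. Ly6a had 12.1, 8.02, 46.4 and 56.1 CPM in E2 aortas, against 3.74, 5.26, 48.1 and 56.8 CPM in E2 livers. The vehicle values were 15.1, 19.0, 50.2 and 79.1 CPM in aortas, against 2.67, 5.48, 56.1 and 68.4 CPM in livers. In o libraries all aortas were above all livers, and in n libraries the tissues overlapped. Over all libraries the log2 fold change was 0.56 ± 0.38 with E2 (adjusted p = 0.234) and 0.96 ± 0.44 with vehicle (adjusted p = 0.0882). Within library types it was -0.21 in n and 1.09 in o libraries with E2, and -0.09 in n and 2.09 in o libraries with vehicle, of which the last was called (adjusted p = 0.00267, edgeR). The vehicle value was also called without liver library n2 (1.30) or aorta library n1 (1.33), with DESeq2 (1.03), with no filter (1.02) and without Rn45s (1.10).

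Ly6c1 had 4.99, 3.78, 10.5 and 13.3 CPM in E2 aortas, against 0, 0.607, 1.22 and 1.01 CPM in E2 livers. In vehicle tissue it had 4.08, 2.91, 12.6 and 17.3 CPM in aortas, against 0, 0.102, 2.25 and 1.90 CPM in livers. The groups did not overlap, and the log2 fold change was 3.498 ± 0.58 with E2 (adjusted p = 7.95e-04) and 3.43 ± 0.59 with vehicle (adjusted p = 4.72e-04). Its counts are uncertain, because 36.7% of the 50-base words of its transcript also occur in another gene. The gene sharing most of them is its neighbour Ly6c2 on chromosome 15. The coding sequences of both genes have 393 bases, of which 9 differ (97.7% identity). Their first 120 coding bases hold 6 of these differences and are shown, from the GENCODE M21 transcripts, with the differing bases in capitals.
Ly6c1: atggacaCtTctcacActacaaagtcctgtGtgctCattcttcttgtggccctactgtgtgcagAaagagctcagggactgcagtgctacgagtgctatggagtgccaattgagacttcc
Ly6c2: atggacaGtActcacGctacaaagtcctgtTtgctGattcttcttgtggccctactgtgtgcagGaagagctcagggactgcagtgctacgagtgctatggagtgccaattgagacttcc
Ly6c2 itself had at most 0.470 CPM in aortas and at most 1.88 CPM in livers. Of the Ly6a transcript, 8.17% of such words occur in another gene, most of all in Ly6c1, and 7 members share none with another gene.

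The secreted proteins were led by Pi16, peptidase inhibitor 16, which marks a fibroblast progenitor state in many mouse tissues. Pi16 had 37.8, 97.0, 267 and 315 CPM in E2 aortas, against 0.864, 0, 2.57 and 2.03 CPM in E2 livers. It had 54.8, 117, 255 and 383 CPM in vehicle aortas, against 0, 0.609, 2.63 and 4.91 CPM in vehicle livers. Every aorta was far above every liver, also within each library type, and the log2 fold change was 7.32 ± 0.72 with E2 (adjusted p = 2.49e-05) and 6.86 ± 0.50 with vehicle (adjusted p = 4.19e-07). Of all genes tested, 99.2% had a lower value in each treatment.

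Igfbp6 encodes a binding protein that prefers insulin-like growth factor II. Igfbp6 had 2.72, 6.67, 69.5 and 71.2 CPM in E2 aortas, against 0.576, 1.11, 31.8 and 27.4 CPM in E2 livers. In vehicle tissue the values were 2.21, 8.44, 86.3 and 111 CPM in aortas, against 1.87, 3.45, 39.0 and 45.6 CPM in livers. Aorta exceeded liver of the same suffix in both treatments, and within n libraries no aorta overlapped a liver. The log2 fold change was 1.78 ± 0.38 with E2 (adjusted p = 0.00340) and 1.06 ± 0.31 with vehicle (adjusted p = 0.0131). The vehicle call lay near the fold threshold and was lost without aorta library o2 (0.99) or aorta library n2 (0.94). Without liver library n1 it was lost on the adjusted p (1.06, adjusted p = 0.0505 by edgeR). It was also lost with no batch covariate (adjusted p = 0.588) and in o libraries alone (0.87, adjusted p = 0.341), while n libraries alone gave 1.08 and kept the call. The E2 call of Igfbp6 was likewise lost with no batch covariate (1.40, adjusted p = 0.497 by edgeR).

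Clec3b encodes tetranectin, a plasminogen-binding C-type lectin of plasma and matrix. Clec3b had 0.302, 0.449, 241 and 233 CPM in E2 aortas, against 0, 0, 6.11 and 20.3 CPM in E2 livers. Vehicle aortas had 0.340, 0.631, 207 and 335 CPM, against 0, 0, 10.9 and 22.9 CPM in vehicle livers. The n libraries carried nearly all of its reads, and in them every aorta was above every liver. Its log2 fold change was 4.32 ± 0.61 with E2 (adjusted p = 2.83e-04) and 4.00 ± 0.49 with vehicle (adjusted p = 3.20e-05). In o libraries it had 24 counts over 4 aortas and 0 over 4 livers, which is at least 4.43-fold higher in aorta with a floor of 3 counts over the 4 livers.

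Of the matrix proteins, Dpt encodes dermatopontin, which binds decorin and collagen fibrils, and Smoc2 a calcium-binding matricellular protein related to SPARC. Dpt had 129.8, 122, 145 and 118 CPM in E2 aortas, against 18.7, 56.4, 18.3 and 6.76 CPM in E2 livers. It had 144, 208, 162 and 76.6 CPM in vehicle aortas, against 20.005, 16.8, 22.1 and 26.6 CPM in vehicle livers. No liver reached any aorta, and the log2 fold change was 2.74 ± 0.51 with E2 (adjusted p = 0.00158) and 2.73 ± 0.37 with vehicle (adjusted p = 7.35e-05). Smoc2 had 25.2, 55.4, 109.7 and 75.0 CPM in E2 aortas, against 11.2, 22.4, 18.4 and 5.41 CPM in E2 livers. Vehicle tissue had 32.8, 66.8, 106 and 35.4 CPM of it in aortas, against 11.2, 11.2, 23.8 and 23.6 CPM in livers. Its groups did not overlap either, with log2 fold changes of 2.15 ± 0.51 (adjusted p = 0.00618) with E2 and 1.79 ± 0.38 (adjusted p = 0.00208) with vehicle.

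Col14a1 encodes collagen XIV, a fibril-associated collagen, and was the member most abundant in liver by CPM. It had 492, 708, 240.3 and 174 CPM in E2 aortas, against 709.6, 678, 568 and 166 CPM in E2 livers. Vehicle aortas had 677, 745, 237 and 130.002 CPM, against 738, 449.8, 372 and 290.4 CPM in vehicle livers. Both tissues overlapped in both treatments. The log2 fold change was -0.46 ± 0.42 with E2 (adjusted p = 0.389) and -0.31 ± 0.36 with vehicle (adjusted p = 0.501), and in the vehicle libraries it was -0.997 in n and 0.29 in o libraries.

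**Figure D2:**
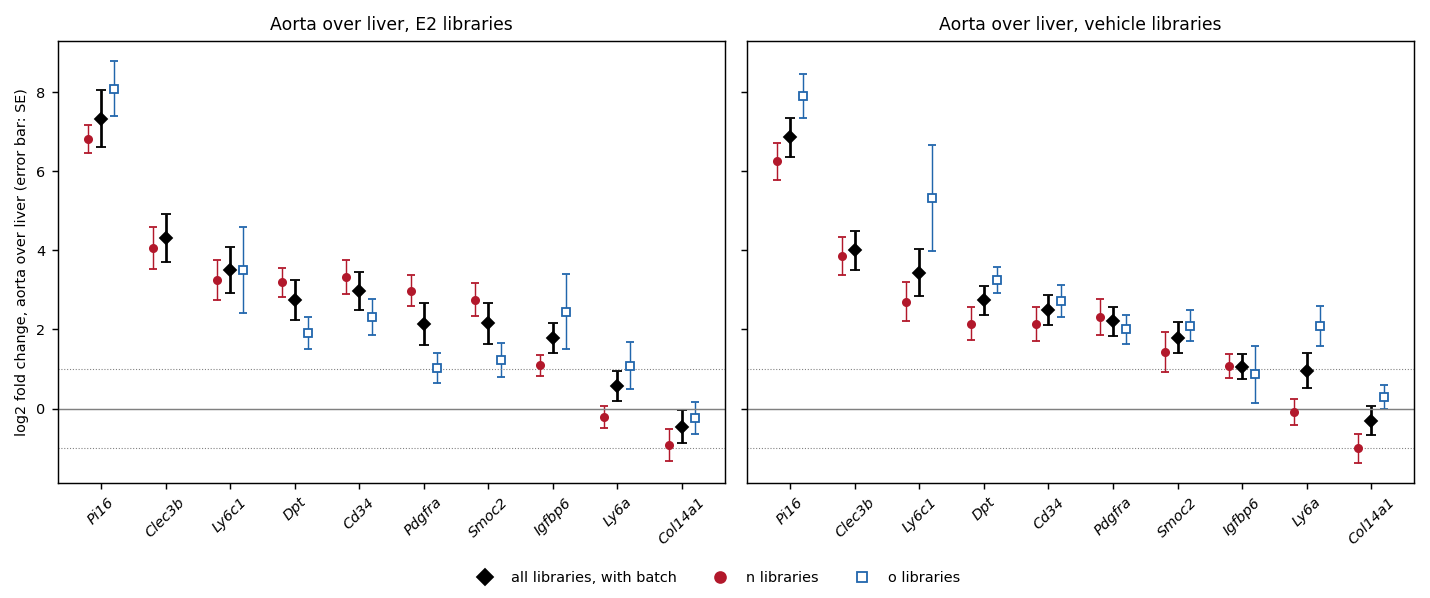
Log2 fold change of aorta over liver with its SE for the 10 genes, in E2 libraries (left) and vehicle libraries (right). Diamonds are the fit over all 8 libraries of a treatment, filled circles n libraries alone, open squares o libraries alone, and dotted lines the fold threshold. Pi16 stands highest at 7.32 and 6.86, and Ly6a and Col14a1 lie within the dotted lines in the fits over all libraries.

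Promoter sequences of 6 of the 10 genes, 7 entries in all, were found in the RefSeq table of build GRCm38.p6, a later build than the mm9 of the counts. For Pi16, Dpt and Cd34, every aorta lay above every liver in both library types. None of them shares a 50-base word with another gene's transcript. The Cd34 window holds none of the motifs searched and is not shown. The windows of Pi16 and Dpt, which do hold such motifs, are shown. Each runs from 250 bases before to 50 bases after the annotated start, on the + strand, at chr17:29318632-29318931 for Pi16 and chr1:164796413-164796712 for Dpt. Capitals mark motifs found.
Pi16: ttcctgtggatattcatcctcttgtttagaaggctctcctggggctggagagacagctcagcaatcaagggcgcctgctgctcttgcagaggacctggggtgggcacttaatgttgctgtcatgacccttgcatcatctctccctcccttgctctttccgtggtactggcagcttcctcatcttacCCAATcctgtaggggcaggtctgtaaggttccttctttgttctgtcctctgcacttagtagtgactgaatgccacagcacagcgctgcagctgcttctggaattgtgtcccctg
Dpt: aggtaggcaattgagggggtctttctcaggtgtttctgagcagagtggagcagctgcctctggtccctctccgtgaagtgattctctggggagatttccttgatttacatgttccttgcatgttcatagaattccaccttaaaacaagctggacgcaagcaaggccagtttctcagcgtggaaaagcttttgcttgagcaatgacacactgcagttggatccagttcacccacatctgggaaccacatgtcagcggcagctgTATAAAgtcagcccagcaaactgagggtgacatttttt
The Pi16 window holds a CCAAT box from base -64, and the Dpt window a TATA box sequence from base 12 after the start. Motifs were searched on both strands of all 32851 promoter entries. The letters TATAAA were found in 13.6% of them, and those of the CCAAT box in 37.4%. The GC box GGGCGG was in 35.7%, the AP-1 motif TGANTCA in 7.81% and the TEAD motif CATTCC in 14.7%. The full palindromic estrogen response element was in 0.07%. In the 7 entries of the members, the TATA sequence occurs in 3 and the CCAAT box in 3, in none of them overlapping another motif searched, and the other 4 were not found. A match describes the letters of these windows alone.

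A list of 30 other fibroblast and adventitial genes, also chosen with earlier results of these data known, was compared in the same fits. In E2 libraries 19 of 29 tested were called higher in aorta and 2 lower, with a median log2 fold change of 2.58. The vehicle libraries gave 19 higher and 3 lower of 29, with a median of 2.27, so the shares called higher were again above the 26.3% and 24.1% of all genes. Mfap5, a microfibril-associated protein, was higher in aorta by 7.81 ± 0.63 with E2 and 7.65 ± 0.57 with vehicle on the log2 scale. Lox, the lysyl oxidase that cross-links collagen, was higher by 5.71 ± 0.48 with E2 and 5.88 ± 0.55 with vehicle. The chemokine gene Ccl11 had 20.6 to 63.3 CPM in E2 aortas and at most 0.202 CPM in E2 livers, and 15.3 to 56.0 CPM in vehicle aortas and at most 1.87 CPM in vehicle livers. Ebf2, a transcription factor of adipogenic progenitors, had 3.20 to 12.1 CPM in E2 aortas and at most 0.506 CPM in E2 livers, and 1.96 to 11.3 CPM in vehicle aortas and at most 0.188 CPM in vehicle livers. Dpp4, which marks interstitial progenitors in mouse connective tissue and is also made by hepatocytes, was lower in aorta by -3.85 ± 0.57 with E2 and -4.22 ± 0.37 with vehicle. Tcf21, a transcription factor of mesenchyme, was lower by -3.50 ± 0.39 with E2 and -4.43 ± 0.39 with vehicle, and Efemp1, a fibulin gene, by -1.27 ± 0.35 with vehicle.

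Markers of other cell types moved with tissue as well. All 5 adipocyte genes tested were called higher in aorta in both treatments, with a summed level of 1596 to 4094 CPM in aortas and 64.5 to 252 CPM in livers. Fabp4 made up most of these sums, with means of 2181 CPM in E2 aortas, 2431 CPM in vehicle aortas, 125 CPM in E2 livers and 147 CPM in vehicle livers. No other gene of that list averaged above 1.45 CPM in either liver group. Of 10 stellate cell genes, 7 were lower and 2 higher in E2 aortas, and 8 lower and 1 higher in vehicle aortas. Their summed level was 526 to 657 CPM in E2 aortas and 1032 to 4102 CPM in E2 livers, and 538 to 921 CPM in vehicle aortas and 945 to 3667 CPM in vehicle livers. Lrat, the retinol-esterifying enzyme that defines stellate cells, was at 0 in 7 of 8 aortas and at 0.0789 CPM in the eighth. Of 8 endothelial genes, 4 were higher and 1 lower in E2 aortas and 1 higher and 1 lower in vehicle aortas, with a summed level of 668 to 932 CPM in E2 aortas and 297 to 881 CPM in E2 livers, and 686 to 865 CPM in vehicle aortas and 429 to 948 CPM in vehicle livers. Of 6 mesothelial genes, 2 were lower in E2 aortas and 4 in vehicle aortas. The part of these cells in the members' differences was not tested.

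The second comparison set n against o libraries within each tissue, with E2 and vehicle libraries together and treatment in the fit. This fit had no term for the suffix, and neither had the test of its difference between tissues further below. E2 and vehicle libraries of the same suffix thus counted as independent, although such aorta libraries deviated together (r = 0.89 to 0.93 from group means). The SEs and p-values of both may therefore be too small. In aorta, Clec3b, Igfbp6, Ly6a, Pi16 and Ly6c1 were called higher and Col14a1 lower in n libraries, 5 higher and 1 lower of 10. Of the 13698 genes tested in aorta, 33% were called higher and 28.1% lower (61% in all), so calls were common at large. In liver, Clec3b, Igfbp6 and Ly6a were called higher and Pdgfra lower, 3 and 1 of the 8 members tested, against 33.7% higher and 35.7% lower (69.5% in all) of 11726 genes. Pi16 and Ly6c1 had too few reads in liver to be tested, with 72 counts over the n and 9 over the o libraries for Pi16, and 37 and 7 for Ly6c1. The members' median log2 fold change was 1.18 in aorta and -0.15 over those tested in liver, against 0.13 and -0.08 over all genes.

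Clec3b showed the widest gap. It averaged 254 ± 56.1 CPM in n aortas and 0.430 ± 0.147 CPM in o aortas (SD, n = 4 each), a log2 fold change of 8.91 ± 0.34 (adjusted p = 6.43e-08, edgeR's quasi-likelihood test). Of the genes tested in aorta, 99.9% had a lower value. In liver it averaged 15.1 ± 7.89 CPM in n libraries and was at 0 in all 4 o libraries, where 3 counts would be 0.303 to 0.864 CPM. With 313 counts over the n livers and a floor of 3 counts over the 4 o livers, it was at least 123-fold higher in n livers.

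Igfbp6 averaged 84.4 ± 19.0 CPM in n aortas and 5.01 ± 3.03 CPM in o aortas, and 35.9 ± 8.03 CPM in n livers and 1.75 ± 1.25 CPM in o livers. No n library overlapped an o library in either tissue, and the log2 fold change was 3.83 ± 0.42 in aorta (adjusted p = 1.05e-05) and 4.27 ± 0.37 in liver (adjusted p = 1.35e-08). Ly6a averaged 57.9 ± 14.7 CPM in n aortas and 13.6 ± 4.64 CPM in o aortas, and 57.3 ± 8.33 CPM in n livers and 4.29 ± 1.33 CPM in o livers. It was higher by 2.02 ± 0.25 in aorta (adjusted p = 2.35e-05) and 3.60 ± 0.31 in liver (adjusted p = 1.10e-08), again without overlap. The n livers covered the same range of Ly6a levels as the n aortas, while the o livers lay under every o aorta.

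Pi16 averaged 305 ± 58.3 CPM in n aortas and 76.7 ± 36.8 CPM in o aortas, a log2 fold change of 1.84 ± 0.36 (adjusted p = 7.79e-04). Ly6c1 averaged 13.4 ± 2.83 CPM in n aortas and 3.94 ± 0.857 CPM in o aortas, a change of 1.67 ± 0.27 (adjusted p = 1.88e-04). Neither gene overlapped between the types in aorta. They did not overlap in liver either, but there the separation rests on few counts. For Ly6c1, E2 liver n2 had 3 counts (1.01 CPM) and E2 liver o2 had 6 (0.607 CPM). For Pi16, E2 liver n2 had 6 counts (2.03 CPM) and E2 liver o1 had 3 (0.864 CPM). Col14a1 ran the other way, with 195 ± 53.2 CPM in n aortas and 656 ± 112 CPM in o aortas, -1.87 ± 0.27 on the log2 scale (adjusted p = 7.58e-05). In liver it averaged 349 ± 169 CPM in n and 644 ± 132 CPM in o libraries, at -0.99 ± 0.30 (adjusted p = 0.00695), which is short of the fold threshold. With the column suffix as a block it was -1.05 and called in liver. Pdgfra averaged 10.0 ± 3.97 CPM in n livers and 36.8 ± 17.3 CPM in o livers, -1.91 ± 0.37 (adjusted p = 1.39e-04), without overlap. In aorta it averaged 70.6 ± 23.8 CPM in n and 105 ± 44.8 CPM in o libraries and was not called (-0.72 ± 0.37, adjusted p = 0.1003).

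Cd34, Dpt and Smoc2 were not called between the library types in either tissue. Their log2 fold changes were -0.10 ± 0.30, -0.38 ± 0.28 and 0.69 ± 0.41 in aorta and -0.50 ± 0.48, -0.66 ± 0.44 and 0.21 ± 0.41 in liver. Cd34 averaged 49.5 ± 12.4 CPM in n aortas and 48.2 ± 15.04 CPM in o aortas, so the means differed by less than the spread between libraries. Smoc2 was called in aorta without vehicle library n2 (1.01).

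Summed levels of markers of other cells differed between the library types as well. In aorta 3 of 8 lists did not overlap between n and o libraries. Mesothelial genes summed to 26.3 to 45.1 CPM in n aortas and 2.55 to 11.4 CPM in o aortas, with 4 of 6 called higher and 0 lower. Adipocyte genes summed to 1596 to 1995 CPM in n aortas and 3217 to 4094 CPM in o aortas, with 3 of 5 called higher and 2 lower. The lower ones were Adipoq and Fabp4, which made up most of the sum. Hepatocyte genes summed to 65.8 to 115 CPM in n aortas and 119.8 to 609 CPM in o aortas. In liver all 8 lists separated the types. The n livers had the higher sum of stellate cell genes (2051 to 4102 CPM in n and 945 to 1323 CPM in o livers). Of these 10 genes, 5 were called higher and 4 lower. Sums were also higher for mesothelial genes (3 called higher and 1 lower of 6) and smooth muscle genes (3 and 2 of 7 tested). The same held for hepatocyte genes (4 and 0 of 8) and lymphocyte genes (4 and 0 of 6 tested). Endothelial genes had the lower sum in n livers (297 to 547 CPM in n and 744 to 948 CPM in o livers). Of these 8 genes, 3 were called higher and 5 lower. Macrophage genes also had the lower sum, with 1 called higher and 4 lower of 7. So did adipocyte genes, of which only Fabp4 could be tested, and it was called lower. The part of these cells in the members' differences was not tested.

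The members differ in transcript length and base composition. The called genes that were higher in n libraries in both tissues are short: the longest coding transcript in GENCODE M21 has 992 bases for Clec3b, 1112 for Igfbp6 and 955 for Ly6a. Ly6c1, called in aorta, has 844. Clec3b and Igfbp6 are the members richest in G and C, at 60.2% and 60.7%, whereas Ly6a has 48.1%. Col14a1, called lower in n aortas, and Pdgfra, called lower in n livers, have the longest transcripts of the members, 6457 bases at 49.7% GC and 6834 bases at 48.1%. Cd34, Dpt and Smoc2 have 2554, 1724 and 2832 bases at 48.9%, 48.7% and 51.8%, and Pi16 3994 bases at 54.9%. The middle 120 coding bases of the pair richest in GC and of the pair with the longest transcripts show the contrast, with each CpG in capitals.
Clec3b: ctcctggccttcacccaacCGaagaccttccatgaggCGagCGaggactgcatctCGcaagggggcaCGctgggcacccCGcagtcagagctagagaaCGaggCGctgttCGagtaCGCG
Igfbp6: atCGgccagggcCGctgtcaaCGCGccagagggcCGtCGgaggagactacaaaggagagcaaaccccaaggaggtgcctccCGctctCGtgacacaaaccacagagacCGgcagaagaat
Col14a1: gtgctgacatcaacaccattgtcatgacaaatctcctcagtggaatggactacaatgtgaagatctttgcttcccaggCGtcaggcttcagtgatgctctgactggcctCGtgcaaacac
Pdgfra: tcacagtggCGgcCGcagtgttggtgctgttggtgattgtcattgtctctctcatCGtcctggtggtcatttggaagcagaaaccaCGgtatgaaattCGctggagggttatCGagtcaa
The stretches hold 11 CpG in Clec3b, 9 in Igfbp6, 2 in Col14a1 and 6 in Pdgfra, at 64.2%, 61.7%, 49.2% and 50.8% GC. Over the whole coding sequence there were 6.11 and 6.44 CpG per 100 bases in Clec3b and Igfbp6, and 2.10 and 3.52 in Col14a1 and Pdgfra.

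Across all genes tested, the n over o difference moved with the same properties. In aorta the median log2 fold change was -1.35 in the quintile of genes with the lowest GC content and 2.22 in the quintile with the highest. It was 1.11 in the shortest quintile and -1.16 in the longest. In liver these medians were -1.97 and 2.02 by GC content, and 2.05 and -2.28 by length. Spearman's rho across genes, which are not independent replicates, was 0.629 with GC content and -0.378 with length in aorta, and 0.565 and -0.578 in liver, over the 93.3% and 93.9% of genes with a value. Clec3b at 8.91 and Igfbp6 at 3.83 in aorta lay above the median of their GC quintile, and Ly6a at 2.02 lay above the median of -0.86 of its quintile. By length in aorta, Clec3b, Igfbp6, Ly6a and Ly6c1 in the shortest quintile were above 0, and Col14a1 and Pdgfra in the longest below 0. Dpt, also in the shortest, was at -0.38, and at -0.66 in liver. Pi16 was at 1.84 in length quintile 4 (median -0.32), Smoc2 at 0.69 in quintile 3 (0.21) and Cd34 at -0.10 in quintile 2 (0.74). The part of length and GC content in the members' differences was not tested.

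**Figure D3:**
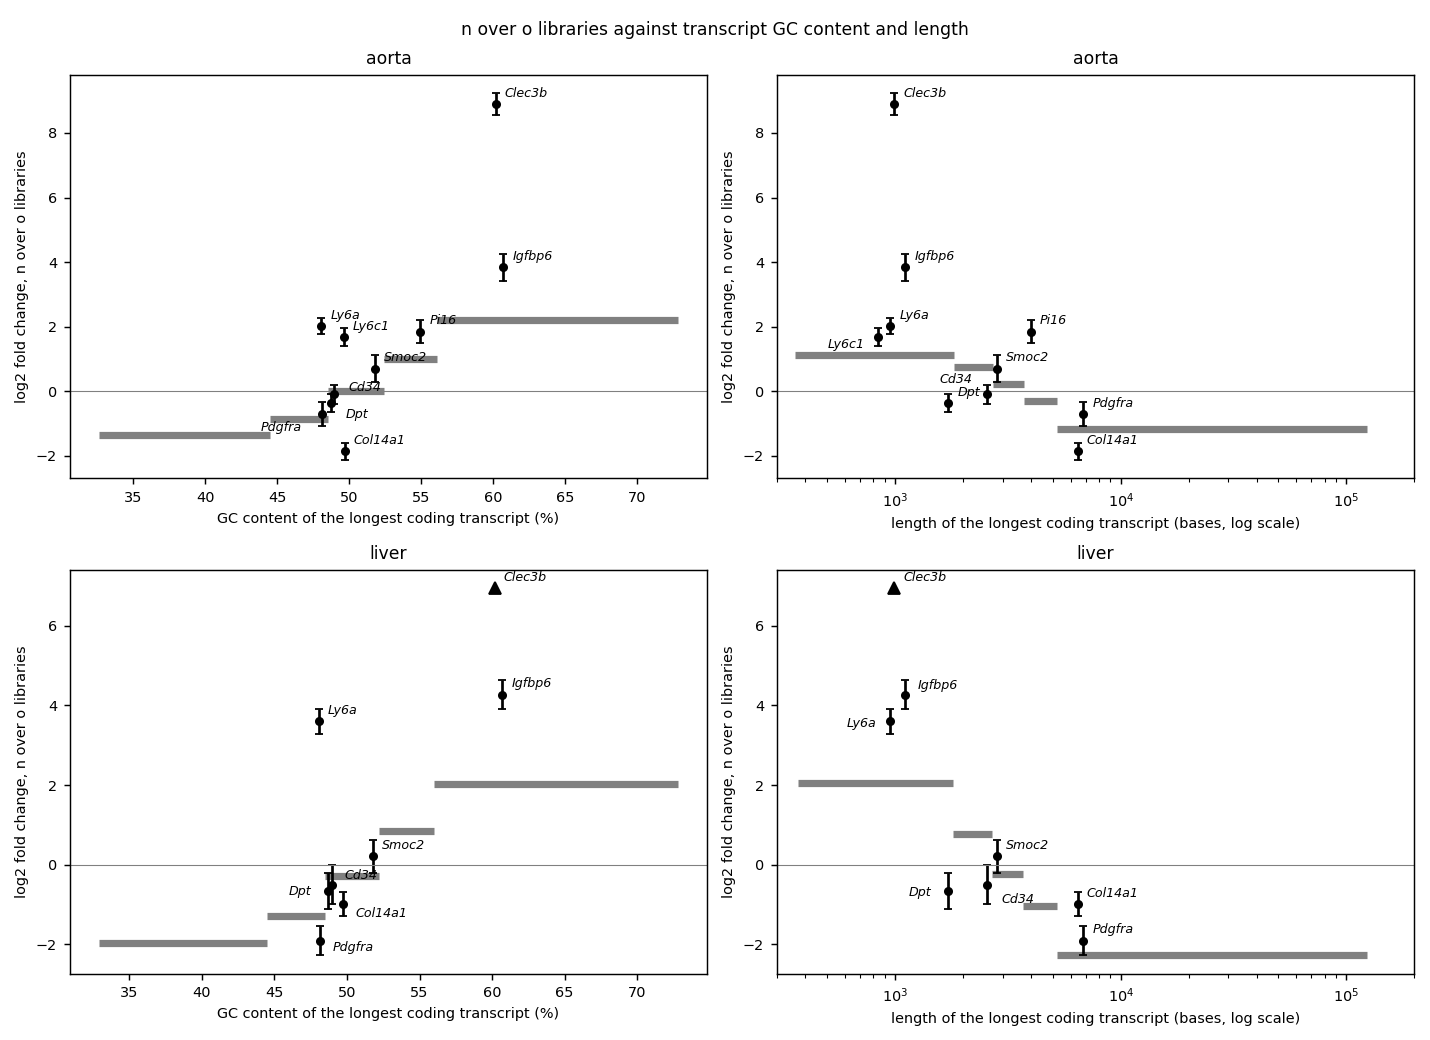
Log2 fold change of n over o libraries (points, SE as bars) against transcript GC content (left) and transcript length on a log axis (right), in aorta (top) and liver (bottom). Grey bars are the medians of all genes in each quintile of the property, from -1.35 to 2.22 by GC content in aorta. The triangle is the lower bound for Clec3b in liver, whose o libraries were at 0.

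The order of the members per transcript length differed between the types. In n aortas Clec3b stood first at 256 ± 56.6 CPM per kilobase, above every other member without overlap. Pi16, Igfbp6, Dpt and Ly6a followed at 76.3, 75.9, 72.6 and 60.7, with neighbours that overlapped, and Col14a1, Smoc2, Cd34, Ly6c1 and Pdgfra at 30.3, 28.8, 19.4, 15.9 and 10.3. In o aortas Col14a1 and Dpt stood first at 102 ± 17.4 and 87.6 ± 22.8 CPM per kilobase, overlapping each other and no other gene. Pi16, Cd34, Smoc2, Pdgfra and Ly6a lay between 14.2 and 19.2, Ly6c1 and Igfbp6 at 4.67 and 4.51, and Clec3b last at 0.434. In n livers Ly6a, Col14a1 and Igfbp6 led at 60.0, 54.1 and 32.3 and Pi16 came last at 0.759, and in o livers Col14a1 led at 99.7 without overlap.

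**Figure D4:**
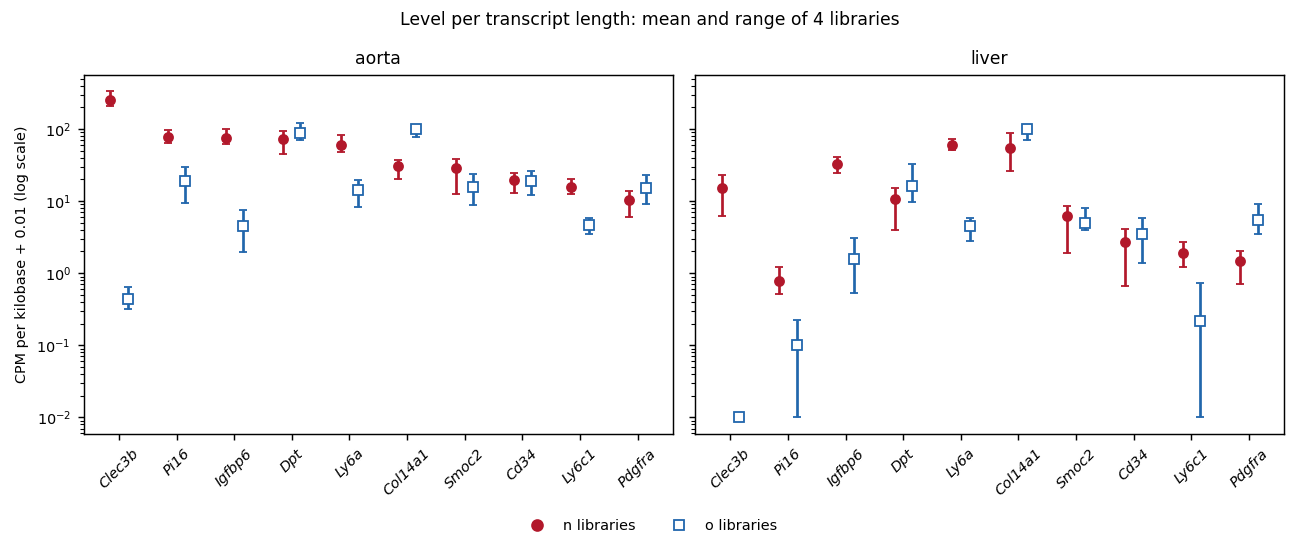
Level per transcript length (CPM per kilobase + 0.01, log scale) of the 10 genes in aorta and liver, ordered by their mean in n aortas. Points are means of 4 libraries and bars the lowest and highest library, with n libraries as filled circles and o libraries as open squares. Clec3b is first in n aortas at 256 and last in o aortas at 0.434.

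Whether the n over o difference itself differed between tissues was tested as an interaction, called at an adjusted p under 0.05. Only Ly6a of the 10 members was called, with a smaller difference in aorta than in liver (-1.54 ± 0.38, adjusted p = 0.00581, edgeR). Of 14190 genes tested, 19.5% were called higher and 9.45% lower (28.9% in all), and the median over all genes was 0.41. The split of calls depended on scaling: it was 2765 higher and 1341 lower here, and 1968 higher and 1872 lower with RLE size factors, which set the median at 0.14. The shortest quintile of genes, which holds Ly6a, had a median of -0.74. Pdgfra was at 1.23 ± 0.53 (adjusted p = 0.0861), and it was called with the column suffix as a block (1.32, adjusted p = 0.0178) and without vehicle aorta library o2 (1.54) or n2 (1.46). Col14a1 was at -0.86 ± 0.44 (adjusted p = 0.144) and was called without E2 liver library n2 (-1.08). Ly6c1 was at -0.88 ± 0.79 (adjusted p = 0.417), and at -3.04 and called without E2 liver library o2. Marker lists differed too: all 7 macrophage genes were called higher, with a summed level of 163 to 218 CPM in n aortas, 175 to 283 CPM in o aortas, 226 to 401 CPM in n livers and 853 to 963 CPM in o livers. The part of these cells in the Ly6a result was not tested.

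The 30 other fibroblast genes were split between the types in aorta, with 7 called higher and 11 lower in n libraries, against 33% and 28.1% of all genes. Gas1, a GPI-anchored growth arrest protein, had 8.30 to 13.4 CPM in n aortas and at most 0.151 CPM in o aortas, and 5.74 to 23.4 CPM in n livers and 0 in all 4 o livers. Loxl1, an elastin cross-linking enzyme, was higher by 3.91 ± 0.20 in aorta and 3.17 ± 0.39 in liver, and Gsn, the actin-severing gelsolin, by 3.74 ± 0.30 and 4.10 ± 0.35. Procr, the endothelial protein C receptor, was higher by 3.14 ± 0.22 in aorta, and Tnxb, tenascin X, by 1.93 ± 0.27 in liver. On the other side Opcml (-2.92 ± 0.50), the transporter gene Abca8a (-2.77 ± 0.47), the semaphorin Sema3c (-2.31 ± 0.45) and Cd248, endosialin (-1.93 ± 0.28), were lower in n aortas. In liver 5 of 23 were called higher and 3 lower, against 33.7% and 35.7% of all genes, the lower ones being Dpp4 (-3.38 ± 0.26), Abca8a (-2.75 ± 0.29) and Sema3c (-2.39 ± 0.43). The difference between tissues was called higher for Procr (3.03 ± 0.33) and Dpp4 (1.78 ± 0.38) and lower for Serpinf1 (-1.71 ± 0.39) and Cd248 (-1.46 ± 0.38).

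The third comparison set E2 against vehicle in aorta. No member was called, and every member overlapped between the treatments, where the share of all genes that overlapped was not counted. By edgeR's quasi-likelihood test 0 of 10 members and 0% of the 13698 genes passed at an adjusted p under 0.05, with 495 genes at an unadjusted p under 0.05. DESeq2 called 24 genes, limma voom 0, and edgeR with the column suffix as a block 12, with no member among them. Fitted log2 fold changes were negative for 9 of 10 members, with a median of -0.15 against -0.01 over all genes, and 5 of the 10 are in the shortest quintile of genes, where the median was -0.14.

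Ly6a had the value farthest from 0. It had 12.1, 8.02, 46.4 and 56.1 CPM in E2 aortas, against 15.1, 19.0, 50.2 and 79.1 CPM in vehicle aortas, lower in 4 of 4 suffix pairs. The log2 fold change was -0.57 ± 0.23, with an unadjusted p of 0.0364 and an adjusted p of 1.00 by edgeR. Igfbp6 was at -0.35 ± 0.19 and Pi16 at -0.28 ± 0.18, each lower in 3 of 4 pairs. Clec3b was at -0.25 ± 0.24, Dpt at -0.17 ± 0.26 and Cd34 at -0.13 ± 0.22, also lower in 3 of 4 pairs. The o pairs of Clec3b, both among the lower, had few counts with E2 and vehicle (2 and 2 in o1, 7 and 13 in o2). Its n pairs went both ways, at 0.22 in n1 and -0.52 in n2. Col14a1 (-0.06 ± 0.23), Ly6c1 (-0.05 ± 0.24), Pdgfra (-0.00 ± 0.26) and Smoc2 (0.03 ± 0.33) were lower in 2 of 4 pairs. For Smoc2 the pairs ranged from -0.37 to 1.06, the highest being the n2 pair.

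**Figure D5:**
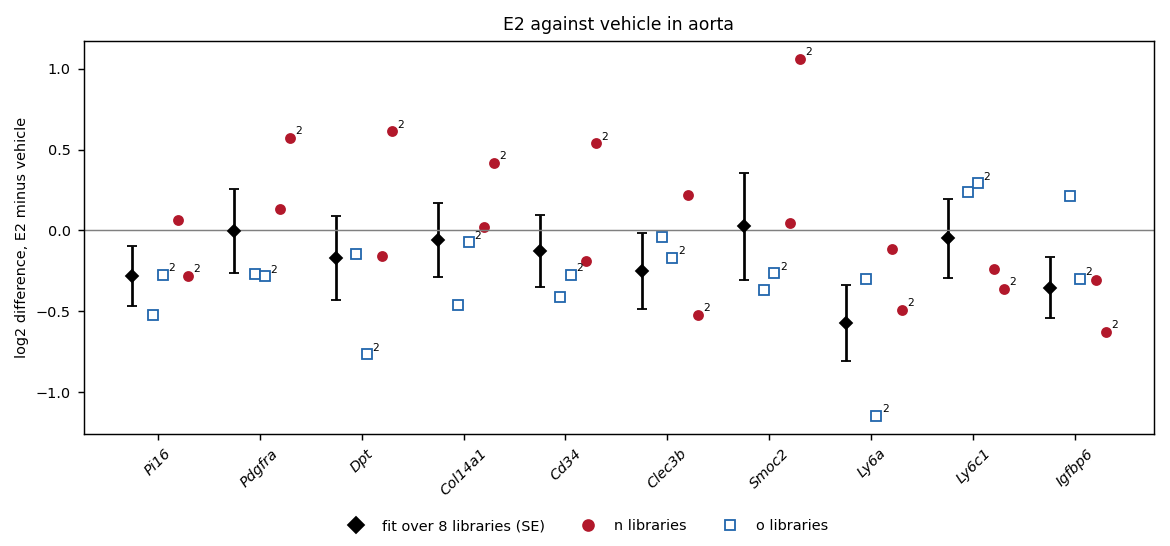
Log2 difference of E2 minus vehicle in aorta for the 10 genes. Diamonds are the fitted values over 8 libraries with their SE, filled circles the n pairs and open squares the o pairs of log2(CPM + 1), where a small 2 marks the pair with suffix 2. Ly6a is below 0 in all 4 pairs, and Smoc2 reaches 1.06 in the n2 pair.

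Lymphocyte genes varied in the same libraries. All 8 on the list had negative log2 fold changes with E2, with a median of -1.75 and none called. Their summed level was 22.5, 24.0, 31.4 and 15.2 CPM in E2 aortas, against 10.0, 70.5, 15.8 and 213 CPM in vehicle aortas, so that o2 and n2 were high with vehicle. None of the 8 was at 0 in 7 of the aortas, and 1 was at 0 in vehicle library o1. Ly6a is known in lymphocytes, and the part of these cells in its values was not tested. Without vehicle aorta library n2, Ly6a was at -0.45, and 17 genes were called, none of them a member. Leaving out each library in turn, this fit included, gave Ly6a values of -0.71 to -0.35. All 7 hepatocyte genes tested were negative as well, with a summed level of 65.8 to 394 CPM in E2 aortas and 106 to 609 CPM in vehicle aortas.

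Of the 30 other fibroblast genes none was called with E2, and 18 of 30 had negative values, with a median of -0.03. The highest were Tcf21 (0.98 ± 0.32, higher in 4 of 4 pairs) and Opcml (0.44 ± 0.33), and the lowest Procr (-0.60 ± 0.18, lower in 4 of 4 pairs) and Serpinf1 (-0.38 ± 0.17).

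For each member the gene with the closest pattern over the 16 libraries was found among 14190 genes, as the smallest root mean square difference of mean-centred log2(CPM + 1). The 16 libraries include both suffix letters, so likeness includes the n and o difference. For Pi16 it was Map6 (0.53), for Clec3b Ddit4 (0.66) and for Igfbp6 Ramp1 (0.43). For Pdgfra it was Svep1 (0.35), for Cd34 Pmp22 (0.35), for Ly6a Srsf9 (0.34) and for Ly6c1 Slc3a2 (0.29). For Dpt it was Rcn2 (0.36), for Col14a1 Prelp (0.33) and for Smoc2 Pkd1 (0.36). In no case was the closest gene another member, although Dpt and Cd34 each had 1 other member among their 20 closest genes.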

How the data were processed

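The authors deposited 1 table of reads per gene symbol over 16 libraries. Per the submitters' processing notes, Bowtie 0.12.5, mouse build mm9, HTSeq 0.4.5p7 and edgeR 3.4.2 were used. No source used here gives the annotation or the strand setting. Overlapping and antisense genes may therefore share reads that cannot be told apart, which touches 6 of the 10 members in GENCODE M21. The deposited values were entered as estimated counts, because each column ends with a percentage; all gene values were whole, so rounding changed nothing. The 8 lines that name no gene stayed out of library sizes and tests; reads in no annotated gene made up 48.0% to 75.2% of a library.

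Columns were assigned to groups by tissue and treatment. Counts were tested with edgeR 4.0.16 (R 4.3.3; quasi-likelihood test, TMM, filterByExpr with minimum counts of 10 and 15 in total) and Benjamini-Hochberg adjustment over all genes, with a batch of 3 levels (o1, o2, n) in the tissue and E2 comparisons. DESeq2 1.42.0 and limma 3.58.1 were alternatives, as were RLE size factors, no filter, Rn45s left out, each library type alone, no batch, a replicate block and leaving out each library. The edgeR script was tested on simulated data. Length and GC content came from GENCODE M21 transcripts and promoters from RefSeq. The members and gene lists were chosen with earlier results of these data known. Named genes were all members, the 4 list genes with the largest change called in each direction (or, with none called, the 2 highest and 2 lowest), and the gene closest to each member in pattern. Same-suffix aorta libraries deviated together (r = 0.89 to 0.93 from group means, and 0.50 in o and 0.43 in n libraries with the type's mean removed). The suffix was taken to pair them in the pair differences and the replicate block, while the main E2 fit held n1 and n2 in 1 batch level. Between aorta and liver, with the type's mean removed, r was 0.16 in o and -0.07 in n vehicle libraries, and 0.11 and 0.22 with E2. No pair of libraries of a group agreed within sampling noise (lowest chi-square per degree of freedom 10.2). Floors of 3 counts cover counting error only.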

Additional observations from a re-analysis of the deposited data

Results flagged for a closer look

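The n over o library difference of Ly6a differed between tissues by a test of the difference itself: it was 2.02 ± 0.25 in aorta and 3.60 ± 0.31 in liver on the log2 scale, and aorta minus liver was -1.54 ± 0.38 (adjusted p = 0.00581, edgeR's quasi-likelihood test). All 4 n livers (48.1 to 68.4 CPM) and all 4 n aortas (46.4 to 79.1 CPM) fell in the same range, while the o aortas had 8.02 to 19.0 CPM and the o livers 2.67 to 5.48 CPM. The value was called in all alternatives run, from -1.84 to -1.31. Over all genes, 28.9% were called in this comparison in either direction.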

How the results depend on the processing

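Pi16 kept its direction and its call in aorta over liver under every alternative run, and Ly6a in the difference between tissues likewise. Without a batch covariate, members called higher in aorta fell to 5 with E2 (2655 genes called) and 4 with vehicle (2447 genes), and the cause was not tested. Clec3b and Igfbp6 lost the call in both treatments, Pdgfra with E2, and Smoc2 and Ly6c1 with vehicle. In n over o in liver, 2 members were called lower with limma voom, with no filter, with the replicate block or with no fold threshold, Col14a1 being the added one, and 5 were called higher with no filter, which lets Pi16 and Ly6c1 be tested. Leaving out each library gave 1 to 2 lower there. In the difference between tissues 2 members were called lower with DESeq2 and 1 to 2 on leaving out each library, and 1 higher with the replicate block and 0 to 1 on leaving out each library. For E2 in aorta, DESeq2 called 24 genes, the replicate block 12, o libraries alone 33, and leaving out each library 0 to 17.

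Some values changed direction. In aorta over liver, n libraries alone gave Ly6a -0.21 with E2 and -0.0892 with vehicle, and o libraries alone gave Col14a1 0.29 with vehicle. In n over o in aorta, Cd34 ranged from -0.31 to 0.13 on leaving out each library. In the difference between tissues Clec3b was 1.78 with limma voom against -1.40 ± 1.33 with edgeR, both fitted against o livers at 0, so neither is a bound, and Dpt ranged from -0.30 to 0.62 and Igfbp6 from -0.81 to 0.0128 on leaving out each library. For E2, Pdgfra was 0.00013 with RLE size factors, 0.0256 with limma voom, 0.0109 with no filter, 0.0244 with the replicate block and 0.29 in n libraries alone. There Dpt, Col14a1 and Cd34 were 0.14, 0.17 and 0.11, and in o libraries alone Smoc2 was -0.33 and Ly6c1 0.33. On leaving out each library, the E2 values ranged from -0.23 to 0.19 for Pdgfra, -0.32 to 0.0498 for Cd34, -0.44 to 0.11 for Clec3b, -0.24 to 0.11 for Col14a1, -0.40 to 0.0341 for Dpt, -0.18 to 0.12 for Ly6c1 and -0.27 to 0.33 for Smoc2. The replicate block changed no other call than those given. Low counts limit the values of Clec3b in o libraries and of Pi16 and Ly6c1 in liver.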
